A study of Mus musculus with 12 samples.

Results

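Cdkn1a, Ing4 and 8 further genes of the p53 response were followed in mouse livers after inhibition of the miR-29 family, and are 10 of the 21705 genes in the deposited table. The p53 protein is a transcription factor that is held at low levels by Mdm2 and that, under stress, turns on genes that stop the cell cycle, repair DNA or start cell death. Cdkn1a encodes p21, the cyclin-dependent kinase inhibitor through which p53 halts dividing cells, and Ing4 encodes a chromatin reader that belongs to the HBO1 histone acetyltransferase complex and has been linked to p53. Hepatocytes of the adult liver rarely divide, and Cdkn1a is known in this tissue as a gene that responds to fasting and stress as well as to p53. The rows were found by the symbol in the table, and all 10 genes were present and passed the filter on low values, a mean of at least 10 over the 12 livers. Cdkn1a and Ing4 were chosen by their higher values in the same comparison of treated with saline livers, so their differences are given as descriptions without a test. The other 8 genes, Trp53, Mdm2, Ccng1, Ppm1d, Trp53inp1, Btg2, Gadd45a and Bax, were not picked for their values.

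The treated group, LNA29, received 2 locked nucleic acids, short modified oligonucleotides that bind and block a microRNA, one against miR-29a and one against miR-29b and miR-29c, at 20 mg/kg of each through the tail vein. The control group received saline by the same route. All 12 mice were female C57BL/6J of 10 to 12 weeks, and livers were taken on day 7 after dosing and an 18 h fast. Polyadenylated RNA of 6 saline and 6 LNA29 livers was sequenced, 1 liver per library. No liver given an unrelated oligonucleotide was analysed here, so an effect of receiving any locked nucleic acid and an effect of blocking miR-29 cannot be told apart, and the microRNAs themselves were not measured in these libraries.

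The deposited unit is an estimated number of reads scaled to set the upper quartile among detected genes at 1000, and it is not divided by gene length. Saline livers had 8217197 to 19062401 reads on genes and LNA29 livers 7696045 to 15079209, and 1 read was worth 9.80 to 24.4 units. Saline replicate 49 stood apart, with 35.7% of its reads on albumin against 43.6% to 46.9% in the other 11 livers. Of 12486 genes tested with limma, 20 passed a Benjamini-Hochberg adjusted p of 0.05 (0.16%). Of these, 9 (0.0721% of the genes tested) were higher in LNA29 livers and 11 (0.0881%) were lower. As a check of the treatment, Col3a1, a collagen gene that miR-29 represses, was 222 ± 57.6 (SD, n = 6) in saline and 650.1 ± 253 (n = 6) in LNA29 livers, with no overlap (limma adjusted p = 0.0438). The sister gene Col1a1 was 228 ± 80.4 and 392 ± 199, and 3 of 6 LNA29 livers lay above all saline livers (limma adjusted p = 0.688).

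A microRNA pairs through its seed, bases 2 to 8, with complementary letters in the 3′ UTR of a messenger RNA, and the message is then translated less and degraded faster. The 3 mature miR-29 RNAs that the oligonucleotides block are shown first, from RefSeq (GRCm38.p6), because their seeds (in capitals) are what the genes below were searched for. All 3 carry one seed.
mmu-miR-29a-3p: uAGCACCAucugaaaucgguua
mmu-miR-29b-3p: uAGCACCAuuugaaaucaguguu
mmu-miR-29c-3p: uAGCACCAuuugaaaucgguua

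The complement of the seed, TGGTGCT on the strand of the transcript, was searched per gene in the 3′ UTR that the annotation draws longest (GENCODE M21, GRCm38; the submitters' processing notes name mm9). It was found once each in Cdkn1a, Ing4, Ppm1d, Trp53inp1 and Btg2, and not in Trp53, Mdm2, Ccng1, Gadd45a and Bax. Among the 11106 tested genes with an annotated 3′ UTR, 1733 (15.6%) held it. The 5 matches are shown in capitals with 15 bases before and 1 base after.
Cdkn1a: acccgaccccaaagcTGGTGCTc
Ing4: cctccttggtgaggtTGGTGCTg
Ppm1d: tatttcaataacaaaTGGTGCTg
Trp53inp1: attattcttcagggtTGGTGCTa
Btg2: acagctttagctcctTGGTGCTc

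The match of Cdkn1a lies at chr17:29100694-29100700 on the plus strand, in the 3′ UTR part of exon 3 of 3. It begins at base 1301 of 1334, close to the end of the message, and 2 of 4 annotated coding transcripts contain it. In Ing4 it lies at chr6:125048674-125048680 (plus strand, exon 8 of 8), at base 267 of a 3′ UTR of 857, in 2 of 2 coding transcripts. That of Ppm1d is at chr11:85346971-85346977 (plus strand, exon 6 of 6) and in 1 of 2 coding transcripts, that of Trp53inp1 at chr4:11171241-11171247 (plus strand, exon 4 of 4), and that of Btg2 at chr1:134076097-134076103 (minus strand, exon 2 of 2). Only the match of Trp53inp1 is followed by an A, the 8-letter form TGGTGCTA that 3.31% of the same genes held. A match is a run of letters, not a measured site of binding.

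Cdkn1a, the p21 gene, was higher in every LNA29 liver than in every saline liver. Its values in saline replicates 43, 45, 47, 49, 51 and 53 were 2328, 3286, 3421, 4110, 3818 and 4843. In LNA29 replicates 44, 46, 48, 50, 52 and 54 they were 8825, 7122, 5434, 9304, 7283 and 12630.1. The lowest treated liver, replicate 48, lay above the highest saline liver, replicate 53. The group means were 3634 ± 848 (SD, n = 6) and 8433 ± 2472 (n = 6), a ratio of 2.32, and the log2 difference was 1.20 with an SE of 0.20. Between 149 and 922 reads stood behind each value. Over all genes tested, 34 of 12486 (0.272%) had all 6 LNA29 livers above all 6 saline livers, and 89 (0.713%) had all 6 below. The first is the pattern Cdkn1a and Ing4 were picked for, so nothing is read from it.

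Ing4, the chromatin reader, had the smaller relative spread of the pair. In the saline livers, in the same order, it measured 329, 323, 379, 383, 386 and 451. In the LNA29 livers it measured 838, 650, 715, 688, 837 and 915. The groups again did not overlap, and the gap between them was wider than the range of the saline livers. The means were 375 ± 46.6 (SD, n = 6) and 774 ± 104 (n = 6), a ratio of 2.06, and the log2 difference was 1.04 with an SE of 0.17. In bulk liver, more RNA per cell and more cells of a kind that uses the gene cannot be told apart.

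**Figure D1:**
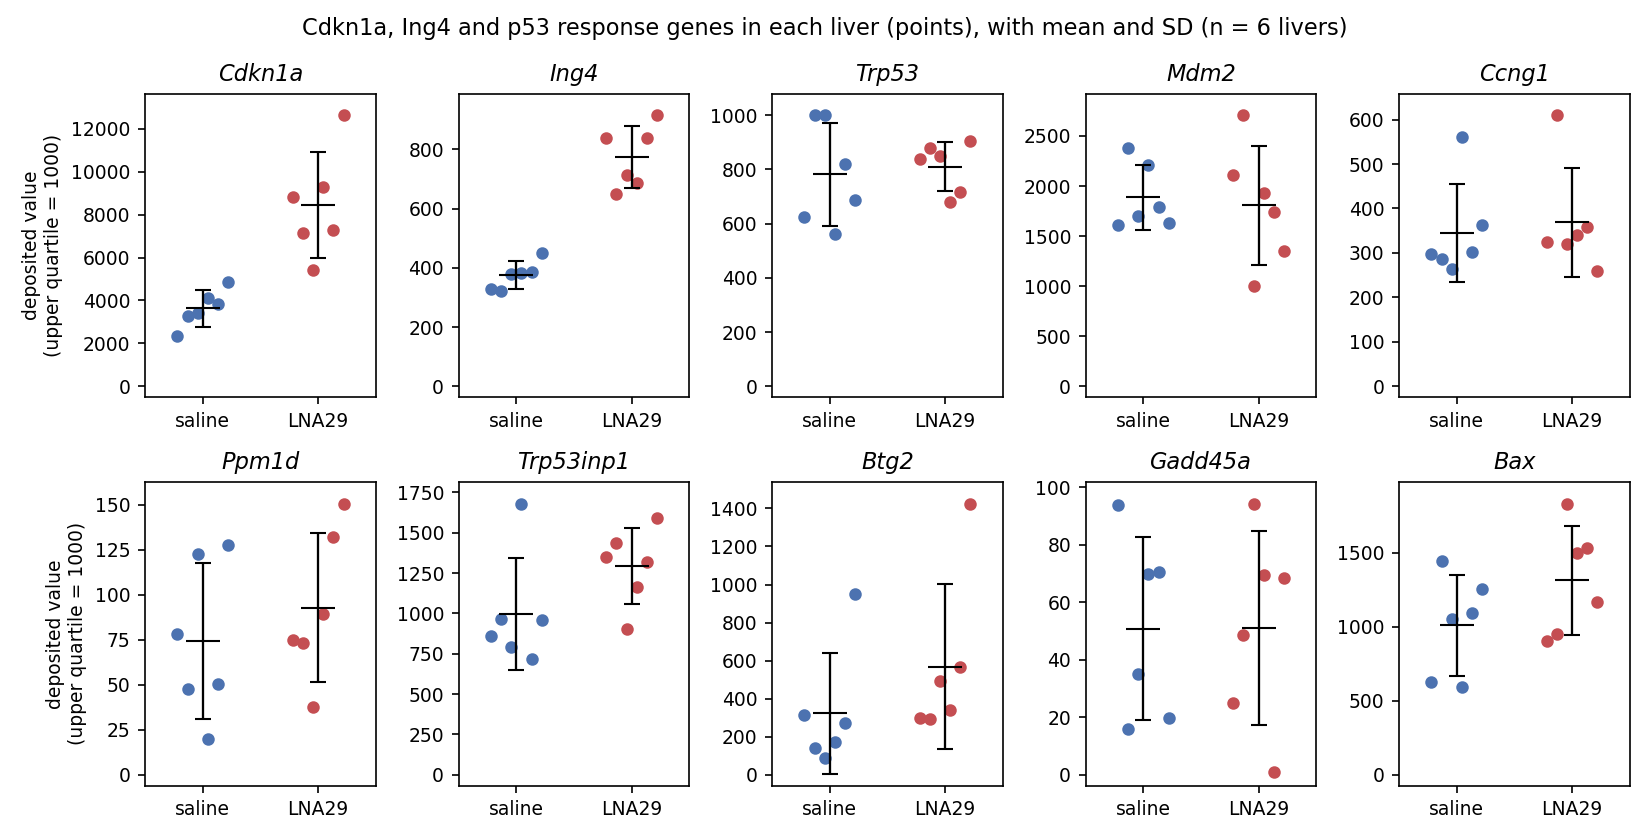
Deposited values (linear axes from 0, upper quartile of each library scaled to 1000) of the 10 genes in 6 saline (blue) and 6 LNA29 (red) livers, each point a liver and each bar the mean with SD. Cdkn1a and Ing4 do not overlap between the groups, and the other 8 genes do.

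The Ing4 values rest on few reads, 20.3 to 67.1 per liver, and in 0 of 12 livers were they a whole number of reads within 0.02, while Cdkn1a was whole in 12 of 12. The program that assigned the reads splits a read between genes that could both have given it. In the GENCODE annotation, 1431 of the 1530 100-base words of the Ing4 transcript (93.5%) are also found in Gm44597, a processed transcript on the same strand that runs through Ing4 toward the neighbouring gene Acrbp. Gm44597 is not a row of the deposited table, and which transcripts the authors' annotation held is not given in the sources used here. Acrbp itself was 262 ± 45.5 (SD, n = 6) in saline and 186 ± 62.5 in LNA29 livers, and Zfp384, another neighbour, 681 ± 305 and 435 ± 188, so both had lower means where Ing4 was higher (limma adjusted p = 0.653 and 0.70). The lowest and highest reads of Acrbp, 14.9 and 33.7 in saline and 5.3 and 14.7 in LNA29 livers, were not whole, as for Ing4. Those of Zfp384, 23.0 and 109.0 in saline and 9.0 and 53.0 in LNA29 livers, were whole. These neighbours were chosen after their values were seen, and the part of shared reads in the Ing4 difference was not tested. For Cdkn1a, 8.23% of the words were shared, with an overlapping gene on the opposite strand.

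Trp53, the gene of p53 itself, differed between the groups by less than the spread between livers. It measured 625, 1000, 1000, 560, 818 and 686 in the saline livers and 838, 878, 849, 679, 717 and 904 in the LNA29 livers. Every treated liver lay inside the saline range. The log2 difference was 0.08 (SE 0.18, 95% interval -0.30 to 0.46, limma adjusted p = 0.955, exact permutation p = 0.626). Trp53 is regulated largely through the stability of its protein, which was not measured here.

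Mdm2 encodes the ubiquitin ligase that marks p53 for degradation and is one of its best-known targets. Saline livers ranged from 1609 to 2381 with a median of 1745, and LNA29 livers from 1000 to 2707 with a median of 1832. The saline range lay within the treated one, whose highest liver was replicate 46 and whose lowest was replicate 48. The log2 difference was -0.12 (SE 0.21, 95% interval -0.55 to 0.32, limma adjusted p = 0.938, exact permutation p = 0.639).

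Ppm1d, the phosphatase that switches p53 signalling off again, was near the limit of detection, with 2 to 13 reads per liver. Its means were 74.4 ± 43.4 (SD, n = 6) in saline and 93.0 ± 41.6 in LNA29 livers, with 2 of 6 LNA29 livers above all saline livers. The log2 difference of 0.43 had an SE of 0.49 and a 95% interval from -0.60 to 1.47 (limma adjusted p = 0.890, exact permutation p = 0.405). With one liver left out it ran from 0.11 (without saline replicate 49) to 0.66 (without LNA29 replicate 48). Pik3r1 and Cdc42, which with Ppm1d were listed as miR-29 targets that act upstream of p53, each held 1 seed match as well. Pik3r1, the regulatory subunit of phosphoinositide 3-kinase, was 1444 ± 775 and 1303 ± 540 (log2 difference -0.10, SE 0.36, limma adjusted p = 0.976). Cdc42, a small GTPase of the cytoskeleton, was 1763 ± 486 and 1760 ± 120 (0.04, SE 0.17, limma adjusted p = 0.979).

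Btg2, an early p53 target that slows proliferation, had the largest log2 difference of the 8 genes that were not picked for their values. Its saline livers measured 313, 143, 87.7, 170, 273 and 951, and its LNA29 livers 300, 293, 491, 339, 566 and 1425. The groups overlapped. Saline replicate 53 was above 5 of the 6 LNA29 livers, and saline replicate 43 (313) was above LNA29 replicates 44 (300) and 46 (293). The log2 difference was 1.01 with an SE of 0.49 (95% interval -0.01 to 2.03, limma adjusted p = 0.634, exact permutation p = 0.110). Without saline replicate 53 it was 1.41 (limma adjusted p = 0.290, exact permutation p = 0.013), and without LNA29 replicate 54 it was 0.70 (0.761 and 0.223).

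Trp53inp1, a stress protein that aids p53 in cell death and autophagy, measured 859, 968, 789, 1680, 717 and 961 in saline and 1350, 1439, 906, 1161, 1321 and 1589 in LNA29 livers. The highest of all 12 values belonged to a control, saline replicate 49, the library with the low albumin share. Apart from that liver, 5 of 6 LNA29 livers were above every saline liver. The log2 difference was 0.42 (SE 0.20, 95% interval -0.01 to 0.84, limma adjusted p = 0.640, exact permutation p = 0.0823). Without saline replicate 49 it was 0.58 (limma adjusted p = 0.268, exact permutation p = 0.00866), and without saline replicate 51 it was 0.33 (0.851 and 0.154). The exact permutation p was under 0.05 in 2 of the 12 runs with a liver left out. With values beyond 1.5 SD of their group left out the difference was 0.68 and passed the threshold (limma adjusted p = 0.0247). Leaving out such values narrows the spread within groups by construction, and 217 of 12486 genes then passed, beside 20 in the main fit. No other alternative gave Trp53inp1 an adjusted p under 0.05.

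Bax, which opens the mitochondrial membrane in apoptosis, ranged from 590 to 1444 with a median of 1072 in saline and from 900 to 1830 with a median of 1332 in LNA29 livers. Of the treated livers, 3 of 6 were above all saline livers. Of its 100-base words, 13.4% are shared with an overlapping gene on the same strand. The log2 difference was 0.41 (SE 0.24, 95% interval -0.10 to 0.92, limma adjusted p = 0.735, exact permutation p = 0.171). Ccng1, cyclin G1, a p53 target that feeds back on Mdm2, was 345 ± 110 (SD, n = 6) and 369 ± 122 (log2 difference 0.09, SE 0.25, limma adjusted p = 0.967, exact permutation p = 0.641). A single liver led each group for Ccng1, saline replicate 49 with 560 and LNA29 replicate 46 with 609.8, and without the second the sign of the difference turned (-0.06). Gadd45a, a growth-arrest gene of the DNA damage response, was at 0 to 7 reads per liver and shares 12.4% of its 100-base words with a gene on the opposite strand. Its log2 difference of -0.39 (SE 0.83, limma adjusted p = 0.951) turned to 0.42 without LNA29 replicate 52, the liver with no reads for it.

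Of the 8 genes, 0 had a limma adjusted p under 0.05 and 0 an unadjusted p under 0.05, where 0.16% and 7.91% of all genes tested had one. Their median log2 difference was 0.25, beside -0.09 over all genes tested, and 6 of 8 were higher in LNA29 livers, beside 38.6% of all genes. The 5 genes with a seed match had log2 differences of 0.42 to 1.20, and the 5 without one of -0.39 to 0.41. That order includes Cdkn1a and Ing4, which were picked for high values, and among the 8 others, of the 3 with a match (0.42, 0.43 and 1.01), Trp53inp1 and Ppm1d were within an SE of Bax (0.41), which has none. Among the 30 other p53 targets tested, the 5 with a match, Zmat3, Bbc3, Apaf1, Xpc and Cop1, lay between -0.44 and 0.12, and the 25 without one between -1.31 and 1.76.

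**Figure D2:**
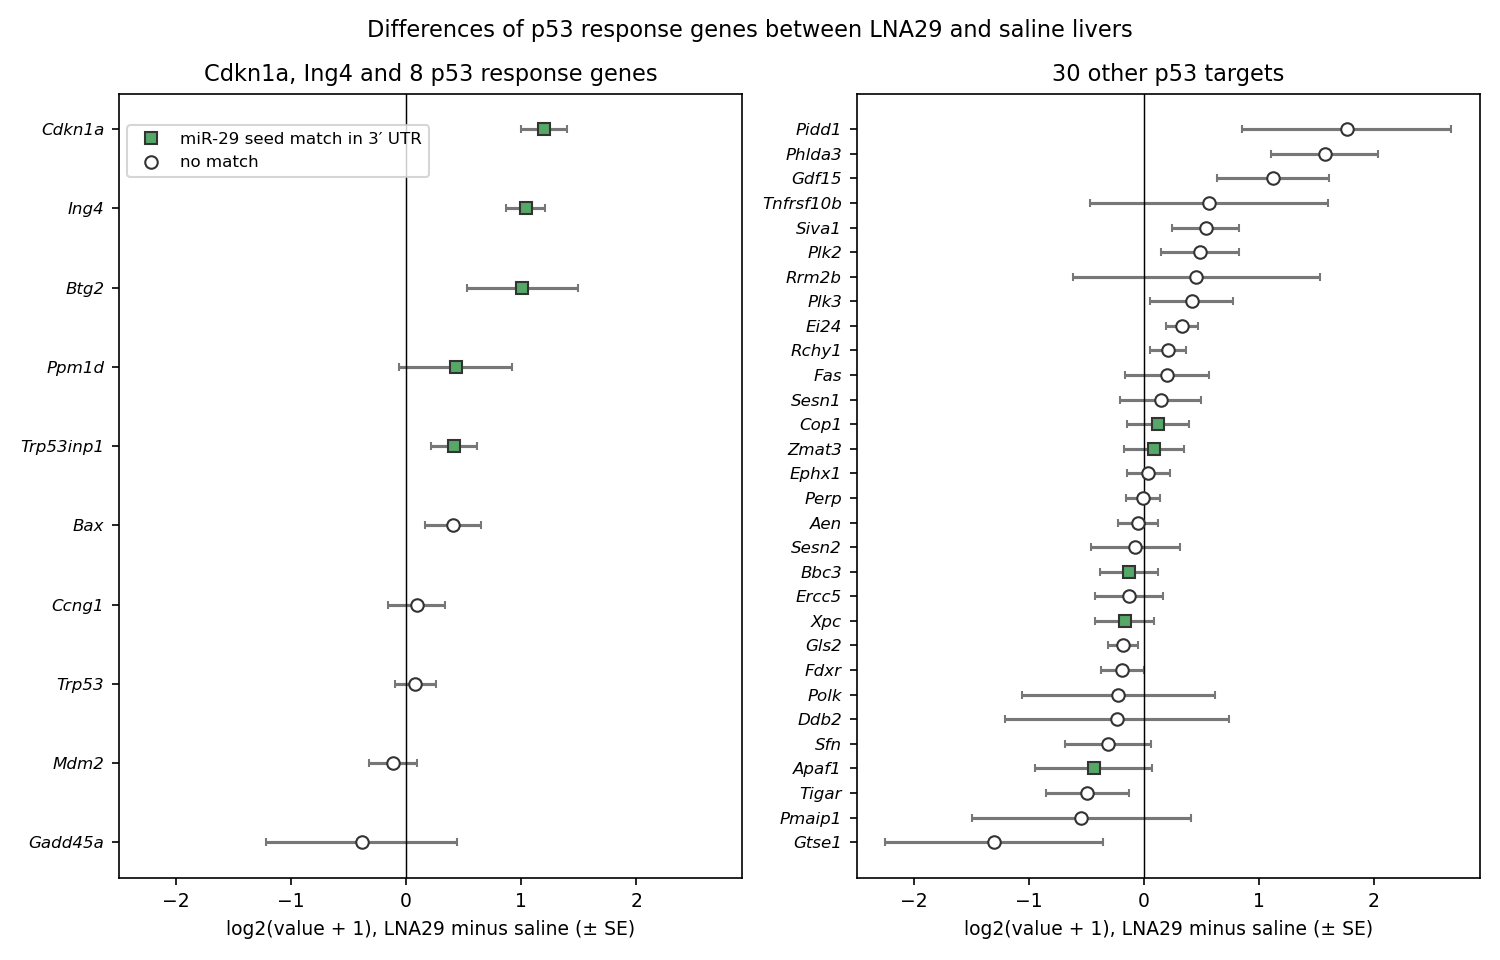
Log2(value + 1) in LNA29 minus saline livers (x axis, bars are the SE, n = 6 and 6) for the 10 genes (left) and the 30 other p53 targets that were tested (right), with green squares for genes with a miR-29 seed match in the 3′ UTR. Cdkn1a and Ing4, at 1.20 and 1.04, lead the left panel by selection, while the other p53 targets spread to both sides of 0 and the 5 with a match lie between -0.44 and 0.12.

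Within each group, the same liver was the highest for some of these genes. Saline replicate 53 and LNA29 replicate 54 were the highest of their groups for Cdkn1a, Ing4, Ppm1d and Btg2, that is for 4 of the 10 genes. Over all genes tested, 463 of 12486 (3.71%) had their highest values in these livers. The remaining genes of the 10 were led by other pairs of livers, and this pair was singled out after the values were seen. Saline replicate 53 had the most reads on genes of its group, 19062401. LNA29 replicate 54 had 12449181, fewer than LNA29 replicate 44 with 15079209, which was the highest of its group for 0 of the 10 genes. Whether depth, or a state these mice shared, goes with these values was not tested, and replicate numbers do not pair the livers.

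**Figure D3:**
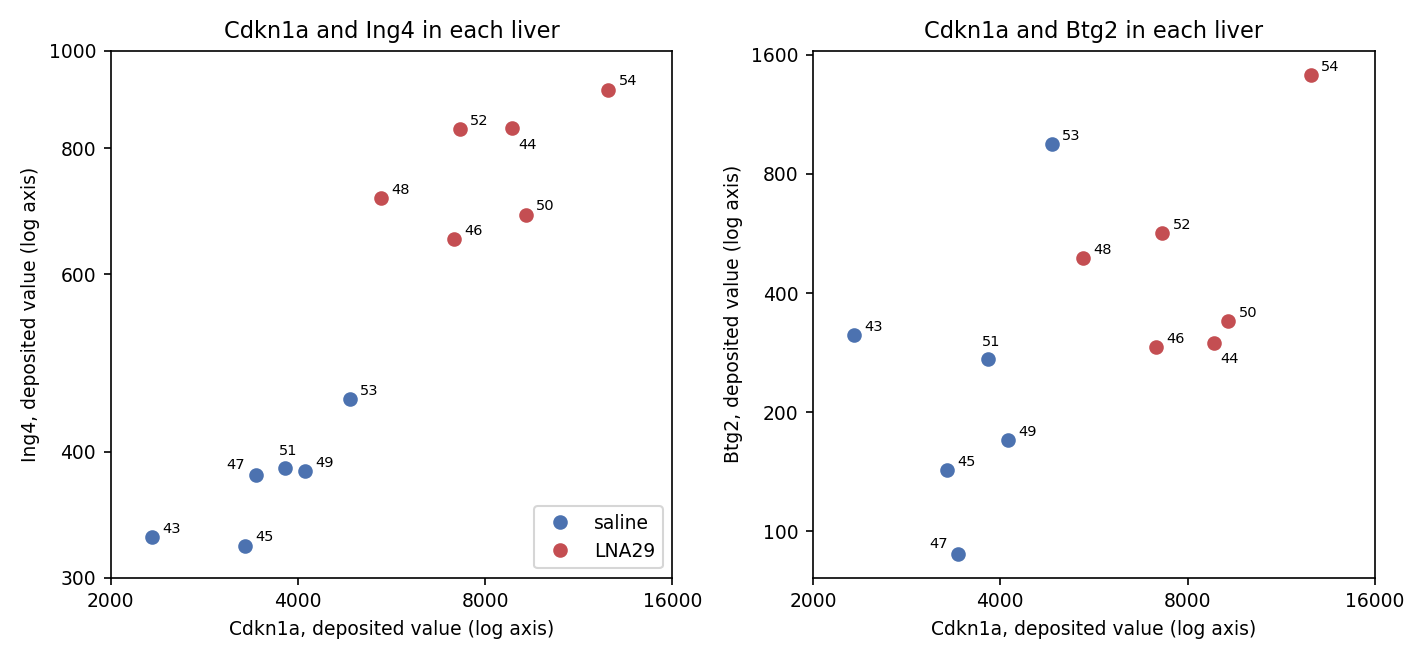
Deposited values of Ing4 (left) and Btg2 (right) against Cdkn1a in each of the 12 livers, labelled by replicate number, on log axes. Saline (blue) and LNA29 (red) livers are separate for Cdkn1a and Ing4, and saline replicate 53 and LNA29 replicate 54 are the highest of their groups in both panels.

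Per length of transcript, the scale on which genes can be compared with each other, Cdkn1a was the most abundant of the 10 genes in both groups. In units per kilobase it was 1747 ± 408 (SD, n = 6) in saline and 4054 ± 1189 in LNA29 livers. Bax followed in saline livers with 1260.5 ± 426, and the ranges of these neighbours were not separate beyond their SD. Mdm2 came next with 599.8 ± 104, then Trp53 with 429 ± 104 and Ing4 with 230.3 ± 28.6. In LNA29 livers Ing4, at 475 ± 64.0, and Trp53, at 445 ± 50.1, had changed places, but lay within an SD of each other. Trp53inp1, Btg2, Ccng1, Gadd45a and Ppm1d followed in the same order in both groups, from 184 to 25.7 units per kilobase in saline livers. The transcript lengths are those of GRCm38 and not of the build the authors used.

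The wider p53 programme was read from 32 textbook p53 targets that are not among the 10 genes. All were in the table, 30 passed the filter, and 0 had a limma adjusted p under 0.05. At an unadjusted p under 0.05, 3 were higher and 0 lower, beside 1.95% and 5.97% of all genes tested. Their median log2 difference was 0.01, with 15 higher and 15 lower, and 0 of 30 had groups that did not overlap. Ei24, a protein of the endoplasmic reticulum, was 9603 ± 1397 (SD, n = 6) and 12068 ± 1485 (log2 difference 0.33, SE 0.14, limma adjusted p = 0.521). Gdf15, a hormone of cellular stress, was 119 ± 47.1 and 302 ± 242 (1.12, SE 0.49, limma adjusted p = 0.574).

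Phlda3, a p53-induced repressor of Akt, was the p53 target with the smallest p, but it rests on few reads. It had at most 3 reads in each saline liver and 2 to 10 in each LNA29 liver, and 5 of 6 LNA29 values were above all saline values. In all, 13 reads in saline and 30 in LNA29 livers gave a ratio per unit of depth of 3.14, with an exact 95% interval of 1.59 to 6.57 that covers counting error only. The limma adjusted p was 0.263 and the exact permutation p 0.00433. With values beyond 1.5 SD left out, Phlda3 passed the threshold (limma adjusted p = 0.0346), the single call among these targets in the limma alternatives run. In that setting, which narrows the spread within groups by construction, 217 of all 12486 genes passed, beside 20 in the main fit.

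Genes that act on p53 or beside Cdkn1a and Ing4 were read from 4 more lists. None of the 13 tested p53 regulators, among them kinases, acetylases and ubiquitin enzymes, had an unadjusted p under 0.05. Their median log2 difference was -0.27, with a range from -0.98 to 1.255. None of 11 relatives and complex partners of Ing4 (median 0.06) had such a p either. The share over all genes was 7.91%, so that such counts are near the background. Of the 6 listed CDK inhibitors, Cdkn2a and Cdkn2b had at most 1 read in any liver and were not tested. Cdkn1b, the p27 gene, was 343 ± 135 (SD, n = 6) and 395 ± 92.6 (log2 difference 0.27, SE 0.27), and Cdkn1c, the p57 gene, 183 ± 61.1 and 162 ± 33.9 (-0.13, SE 0.29). Cdkn2c differed by -0.19 (SE 0.34) and Cdkn2d by 0.41 (SE 0.64), and the smallest limma adjusted p of these 4 was 0.874. Among 11 transcription factors known to act on the Cdkn1a promoter, 1 had an unadjusted p under 0.05, a share near the 7.91% over all genes. It was Cebpa, a hepatocyte factor, which was 8863 ± 2417 in saline and 6580 ± 799 in LNA29 livers (-0.40, SE 0.17, limma adjusted p = 0.539).

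The cell cycle genes that p53 and p21 hold down were examined because Cdkn1a was high. Of 20 listed, 14 passed the filter and 0 had an adjusted p under 0.05. Their median log2 difference was 0.26, with 10 of 14 higher in LNA29 livers on that scale (38.6% over all genes tested). Most rest on few reads, and Cdk1, Mki67, Plk1, Cdc20 and Foxm1 had at most 3 in any liver. By the ratio of means, Ccna2 (1.785), Mki67 (1.18) and Mcm3 (1.09) were higher although their log2 differences were negative. Mcm5 (0.907) and Aurka (0.935) were lower by it although theirs were positive, so the count of directions depends on the scale. At an unadjusted p under 0.05, 2 of the 14 were higher and 0 lower, beside 1.95% and 5.97% of all genes. Those were Mcm6, a subunit of the replicative helicase, at 36.8 ± 21.6 (SD, n = 6) and 67.9 ± 16.01 (1.06, SE 0.48, limma adjusted p = 0.613), and Plk1, a mitotic kinase with at most 3 reads in any liver. The 6 genes that were not tested were under a mean of 10, which is about the worth of a single read.

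**Figure D4:**
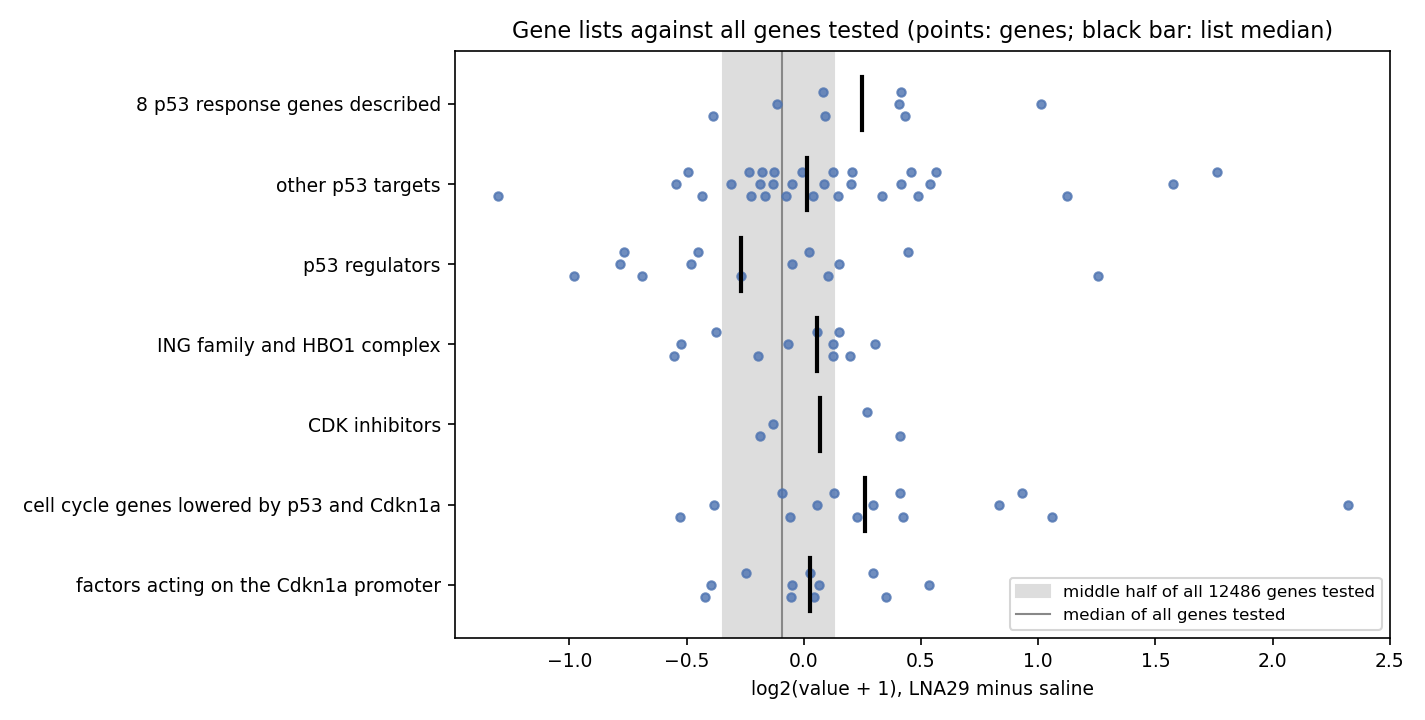
Log2(value + 1) in LNA29 minus saline livers (x axis) for each tested gene (points) of 7 lists, with the list median (black bar) and, in grey, the interquartile range and the median of all 12486 genes tested. The medians run from -0.27 for p53 regulators to 0.26 for cell cycle genes, most of which rest on few reads, and each list spreads to both sides of 0.

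The genes whose profile over the 12 livers was most like Cdkn1a were sought among 8989 genes with a mean of at least 100, by the root mean square difference of log2(value + 1) after subtracting each gene's saline mean. Ing4 was the nearest of all, at 0.29, which is a description, since both were picked for the same rise. Next came Lysmd1 (0.37), Taf7, a subunit of the general transcription factor TFIID (0.40), Col4a2, a basement membrane collagen (0.43), and Dnmt3a, a DNA methyltransferase (0.43). For Ing4 the nearest were Col4a2 (0.24), Lysmd1 (0.26), C1galt1c1, a chaperone of protein glycosylation (0.26), Cdkn1a (0.29) and Spns1 (0.32). Col4a2 was 819 ± 114 (SD, n = 6) in saline and 1423 ± 182 in LNA29 livers, and Lysmd1 188 ± 21.03 and 358 ± 64.2, both with no overlap. Over all genes tested, 34 of 12486 (0.272%) had all LNA29 livers above all saline livers. Genes chosen for their likeness to Cdkn1a and Ing4 rise by that choice, so nothing is read from it. Collagens and DNA methyltransferases are known targets of miR-29, and whether miR-29 links these profiles was not tested.

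Markers of the cells of the liver were compared in the same livers. Of 32 markers tested, of hepatocytes, stellate, endothelial and Kupffer cells, lymphocytes, bile duct and red cells, 0 had an unadjusted p under 0.05, beside 7.91% of all genes. The SE of the log2 difference was 2.73 for the hepatocyte marker Alb and 0.77 for Apoa1, so for these the count could miss large changes. All 5 Kupffer cell markers (median log2 difference -0.27) and 4 of 5 endothelial markers (median -0.22) had lower means on the log2 scale in LNA29 livers, where the median of all genes was -0.09. The part of cell makeup in the values of Cdkn1a and Ing4 was not tested. The summed level of 5 stellate markers ran from 3108 to 3870 in saline and from 2415 to 4301 in LNA29 livers, and that of 5 Kupffer cell markers from 4328 to 7789 and from 3679 to 7493. No marker on these lists was at 0 in all livers of a group. The 4 hepatocyte markers had reads in every liver, as the label of the tissue has it. Their summed level ran from 32112320 to 108902351 in saline and from 78926036 to 93925300 in LNA29 livers.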

How the data were processed

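The authors sequenced polyadenylated liver RNA (TruSeq kit, single reads of 100 bases), mapped it with MapSplice2 and estimated reads per gene with RSEM; mm9 is named in the submitters' processing notes, and versions and the use of strand are not given in the sources used here. What the authors deposited is a signal value for each of 21705 genes and 12 livers, in which the estimated reads are scaled to an upper quartile of 1000 (998 in saline replicate 49) and genes without reads are set to 1. Group means, fold changes and p-values of the authors and 3 unnamed columns were not used.

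Of the values, 91.9% to 93.4% per liver were whole multiples of one step within 0.02, the worth of 1 read, which gave reads and depth. Genes with a mean of at least 10 were compared on log2(value + 1) with limma 3.58.1 (R 4.3.3) with a trend, two-sided, with Benjamini-Hochberg adjustment over all 12486 and a threshold of 0.05. For genes with few reads, fold changes on this scale depend on the 1 that stands for no reads and can differ from the ratio of means in size and sign. For single genes an exact permutation test, also two-sided, ran through every way to divide the 12 livers, with a smallest p of 1 in 462. Intervals are at 95%. In simulated data on 12486 genes limma recovered 75 of 100 genes changed by 1 and 97 of 100 changed by 2 (log2), with 2 false calls. The simulation gave all genes the same spread between livers, beside counting error, and changed only genes with a mean of at least 100. Its shares are not the power for genes that vary more between livers, such as Btg2 (SE 0.49), or for genes with lower means. Each liver came from 1 mouse. The study's methods compare the groups one-tailed and without adjustment, which was an alternative. Python 3.11.15 with numpy 2.4.6, pandas 2.3.3 and scipy 1.17.1 was used otherwise.

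The genes and lists were chosen with earlier results of these data known. Named are the 10 genes, list genes with an unadjusted p under 0.05 or every gene of lists of up to 6, the 5 genes most like Cdkn1a and Ing4 each, the collagens as a check, and neighbours of Ing4. Outside that rule, other p53 targets are named for a seed match, and cell cycle genes for few reads or a direction that depends on the scale.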

Additional observations from a re-analysis of the deposited data

Results flagged for a closer look

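In 44 groups of 6 livers (22 named genes in each treatment), 6 held a liver set apart from the others by a gap that, as a share of the group's range, passed Dixon's 95% limit. For normal values in independent groups, chance alone gives about 1 in 20, here 2.2. The values were not logged and the genes share livers, so that number is a rough guide. In all 6 the liver set apart was the highest of its group. Saline replicate 49 was set apart for Ccng1 (560, with the other livers at 263 to 363) and for Trp53inp1 (1680, with the others at 717 to 968). LNA29 replicate 46 was set apart for Ccng1 (609.8, with the others at 260.3 to 358). Saline replicate 53 was set apart for Btg2 (951, with the others at 87.7 to 313) and for Cdkn2d (176, with the others at 15.6 to 70). LNA29 replicate 54 was set apart for Btg2 (1425, with the others at 293 to 566). Neither Cdkn1a nor Ing4 had such a liver in either group.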

How the results depend on the processing

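The log2 difference of Cdkn1a ran from 0.95 to 1.32 and that of Ing4 from 0.99 to 1.09 over 20 alternatives each. The number of genes with an adjusted p under 0.05, 20, became 10 with a common median, 58 with array weights, 217 with values beyond 1.5 SD left out, and ran from 1 to 29 when a single liver was left out; it was 1 without saline replicate 43, LNA29 replicate 50 or LNA29 replicate 54, and the share of calls higher in LNA29 livers moved from 45.0% to 60.0% with a common median, 57.9% with robust moderation, 31.0% with array weights and 33.6% with values left out. The study's own thresholds, a ratio of means of at least 1.5 either way and an unadjusted one-tailed p of 0.05, are another kind of count and took 883 genes; the p53 targets were not counted under them. The number of other p53 targets called, 0, became 1 with values beyond 1.5 SD left out and was 0 in the other limma alternatives, also without each liver (0 to 0). When a single liver was left out, the log2 difference ran from -0.0086 to 0.16 for Trp53 (lowest without saline replicate 49), from -0.25 to 0.041 for Mdm2 (highest without LNA29 replicate 48), from -0.064 to 0.24 for Ccng1 (lowest without LNA29 replicate 46) and from -0.70 to 0.42 for Gadd45a (highest without LNA29 replicate 52), so that each turned in sign once; the cause was not tested. Seed matches were in 5 of the 10 genes by bases 2 to 8 and by bases 2 to 7, and in 1 when an A had to follow, as the longer word is rarer. Of the tested genes with a 3′ UTR, 15.6% held the match by bases 2 to 8, 33.7% that by bases 2 to 7 and 3.31% that with an A. Count tests were not run, since RSEM splits reads and whole reads could not be recovered for every gene. No paired analysis was possible because the replicate numbers of the groups are not shared. Depth limits Gadd45a, Ppm1d, Phlda3 and the cell cycle genes.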
